A study of Caenorhabditis elegans with 20 samples.

Results

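RNA recovered in AIN-1 immunoprecipitates (IPs) of the nematode Caenorhabditis elegans was compared with RNA recovered by preimmune serum from worms of the same strain. The comparison rests on 6 of the 20 samples of the series, the 3 labelled AIN-1 IP and the 3 labelled Preimmune IP, and both groups are numbered 1 to 3. All 6 came from mixed-stage worms of N2, the wild-type laboratory strain, with no transgene and no treatment, so that whole animals of every stage lie behind each value. The study profiled RNA on spotted DNA microarrays to find messages bound by AIN-1 and its relative AIN-2. A second contrast is used below for reference only, the AIN-2::GFP IP (n = 3, from 1 single-copy integrated line, A) against the GFP IP (n = 3, from an injection line that carries GFP under the AIN-2 promoter).

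AIN-1 belongs to the GW182 protein family. These proteins bind the Argonaute proteins that carry microRNAs, and together they form the microRNA-induced silencing complex (miRISC), which recognises partly complementary sites in messenger RNAs, recruits deadenylases and lowers translation and stability of the message. In worms the let-7 and lin-4 families of microRNAs time larval development through such targets, and preimmune serum, taken before an animal was immunised, shows which RNAs are recovered without the specific antibody.

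The 2 groups differed in brightness before any gene was considered. Mean signal was 907, 629 and 808 scanner units in AIN-1 IP replicates 1, 2 and 3, and 9, 40 and 47 in preimmune replicates 1, 2 and 3. The groups did not overlap (781 ± 141 against 32 ± 20.2, SD, n = 3 each, two-sided exact permutation p = 0.1, the smallest that 3 against 3 samples allow). A background limit was set in each sample at the median plus 2 median absolute deviations of 1328 chemoreceptor gene features, and it lay between 23.8 and 36.7 scanner units in the AIN-1 IP and between 5.93 and 11.9 in the preimmune IP. Of the gene features, 51.2% ± 1.26 lay above it in the AIN-1 IP and 21.8% ± 10.1 in the preimmune IP (SD, n = 3 each, exact permutation p = 0.1), with 10.2% in preimmune replicate 1. Relative to the mean of its own sample the limit was higher in the preimmune IP (0.211 to 0.659 sample means) than in the AIN-1 IP (0.0378 to 0.0454), so that a feature had to be a larger part of the signal to count as measured there. Spearman's rho across features was 0.908 to 0.912 between AIN-1 IP samples. Between preimmune samples it was 0.623 for replicates 2 and 3, and 0.26 and 0.446 for replicate 1 against them, which puts replicate 1, the dimmest sample, apart from the others. Against the AIN-1 IP samples, preimmune replicates 2 and 3 had 0.673 to 0.75, above their value with each other. Preimmune replicate 1 had 0.253 to 0.303 there. Features share their sample, so these correlations describe the samples and carry no test.

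**Figure D1:**
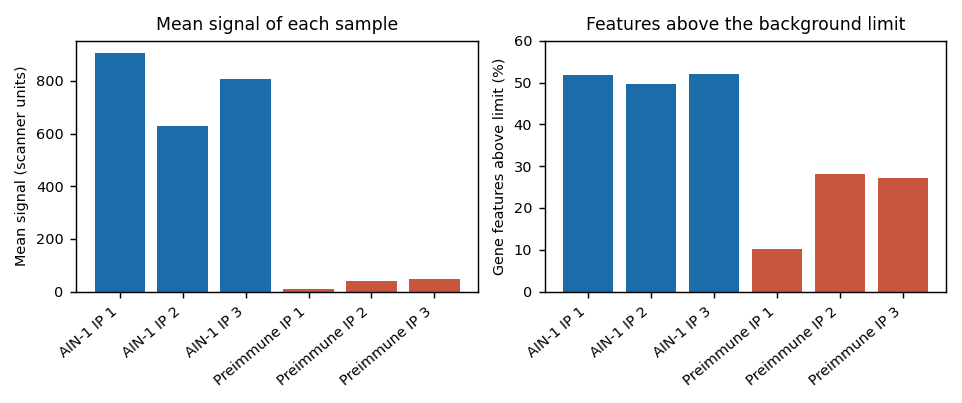
The left panel shows the mean signal of each of the 6 samples in scanner units, and the right panel the percentage of gene features above that sample's background limit. Each bar is 1 sample: the AIN-1 IP samples lie between 629 and 907 scanner units and the preimmune samples between 9 and 47.

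Signals below are quantile-normalised and given in multiples of the sample mean. Differences are AIN-1 IP minus preimmune IP on the log2 scale with their standard error (n = 3 each). A higher or lower signal therefore means a larger or smaller part of the signal of its sample. The amount of RNA recovered per gene was not compared, and the AIN-1 IP samples were far brighter as a whole. Of 12222 gene features tested, 1154 had a higher signal in the AIN-1 IP (9.44%) and 289 a lower signal (2.36%) at an adjusted p under 0.05 in limma, which together make 11.8%. At an unadjusted p under 0.05 the counts were 2552 and 918. The last feature past the threshold was that of sri-15 (adjusted p = 0.05) and the first beyond it that of K07A1.13 (0.0501). All 3 AIN-1 IP samples lay above all 3 preimmune samples for 2825 features (23.1%) and below them for 821 (6.72%). The median difference over all features was 0.42, and within the replicate pairs it was 0.94, 0.12 and 0.09 for pairs 1, 2 and 3.

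Most of the higher calls concern features that the preimmune samples did not measure. Of the 1154, 692 (60%) were above the limit in all AIN-1 IP samples and in no preimmune sample, and 76 were above it in all 6 samples. Of the 289 lower calls, 95 were above the limit in all 6 samples, 81 (28%) were above it in no sample at all, and 1 was above it in all AIN-1 IP and no preimmune samples. Among the features above the limit in every preimmune sample the balance was different: of 1096 features, 76 (6.93%) were higher and 99 (9.03%) lower, with a median of 0.24. Choosing features by preimmune signal alone favours those that are high there. Requiring all 6 samples above the limit left 1089 features with 76 higher (6.98%), 95 lower (8.72%) and a median of 0.27. Nearly all of the 1096 features met this rule, so it keeps the same preference for features that are high in the preimmune IP.

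These counts rest on a spread pooled over 7 groups. The median SD of a feature was 0.35 on the log2 scale in the AIN-1 IP and 1.45 in the preimmune IP. It was 1.01 in the GFP IP and 0.22 to 0.48 in the remaining groups. The pooled spread thus draws mostly on groups that varied less than the preimmune IP. Standard errors and adjusted p values against the preimmune IP can therefore be too small. With only the 6 samples in the fit, 107 features were higher and 4 lower, and with the replicate number as a block in those 6 samples limma called 0 features at an adjusted p under 0.05 (1336 higher and 468 lower at an unadjusted p under 0.05). The block over all 20 samples gave 1481 higher and 542 lower. Without AIN-1 IP replicate 1, 2 or 3 the counts were 575 and 99, 445 and 74, and 644 and 141. Without preimmune replicate 2 or 3 they were 1759 and 738, and 1693 and 488. Without preimmune replicate 1 they were 1232 and 514, and 274 and 401 among the 3759 features then above the limit in every remaining sample. Among the 1089 features above the limit in all samples the split depended on the scaling, with 357 higher and 36 lower under mean scaling and 19 and 193 under cyclic loess. The median of the 1089 moved with it, from 0.27 to 1.07 and -0.25, and the median over all tested features from 0.42 to 0.20 and 0.04.

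The 12 largest rises of named genes with both sides measured included 2 linker histone genes, a transcription factor and several enzymes. Linker histones bind the DNA between nucleosomes. The linker histone gene hil-3 had signals of 225, 225 and 124 in the AIN-1 IP and 11.1, 5.35 and 9.24 in the preimmune IP. Its lowest AIN-1 IP sample was thus more than 10 times its highest preimmune sample, and the difference was 4.52 ± 0.55 (22.9-fold, adjusted p = 2.3e-04). The second, his-24, had 74, 62.4 and 67.7 against 4.04, 4.5 and 8.43 (3.63 ± 0.62, adjusted p = 0.00213). Both kept the call in all 6 fits that left out 1 sample, under both other scalings and with only the 6 samples (adjusted p = 0.0373 for hil-3 and 0.0456 for his-24). With the replicate block in the 6 samples the adjusted p was 0.264 for each. The gene mdl-1 encodes a MAD-like basic helix-loop-helix repressor, a partner of the MAX-like proteins. It had 41, 23.1 and 31.4 against 3.21, 3.28 and 5.94 (3.00 ± 0.49, adjusted p = 0.00162), and its groups did not overlap.

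Among the enzymes, vha-12, a subunit of the proton-pumping V-ATPase, had 27.6, 44.8 and 25.4 in the AIN-1 IP against 4.43, 4.55 and 5.41 in the preimmune IP. The preimmune samples were close together for this gene, and the difference was 2.75 ± 0.39 (adjusted p = 6.13e-04). The gene smd-1 encodes S-adenosylmethionine decarboxylase of polyamine synthesis and was the brightest of the named genes, at 497, 192 and 106 against 24.4, 29 and 30.3 (2.88 ± 0.55, adjusted p = 0.00401). That difference depended on the scaling, since it turned to -0.02 under cyclic loess (adjusted p = 0.983). The alcohol dehydrogenase gene adh-1 (2.89 ± 0.69, adjusted p = 0.015) and the actin gene act-1 (2.46 ± 0.65, adjusted p = 0.0236) lost their calls under cyclic loess (adjusted p = 0.0641 and 0.149). Leaving out AIN-1 IP replicate 2 ended both too, adh-1 without replicate 1 and act-1 without replicate 3 (adjusted p up to 0.0804 and 0.154). Actin genes are near-identical in sequence, so a spot may hold RNA of more than 1 of them.

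The other 5 of the 12 largest rises with both sides measured were of varied function. The heterogeneous nuclear ribonucleoprotein gene hrpr-1 had 124, 106 and 118 against 13.2, 16.1 and 23.3 (2.66 ± 0.50, adjusted p = 0.00385). The chaperonin subunit gene cct-7 had 94.2, 63.7 and 69.6 against 6.96, 14.5 and 19.2 (2.51 ± 0.49, adjusted p = 0.00484). In both the groups lay far apart, yet cyclic loess brought the adjusted p to 0.149 and 0.0637. The elongin B gene elb-1, part of a ubiquitin ligase adaptor, differed by 2.69 ± 0.63 (adjusted p = 0.0132), the amine methyltransferase gene anmt-3 by 2.55 ± 0.52 (0.00628) and the lysozyme gene lys-1 by 2.48 ± 0.62 (0.0187). Leaving out AIN-1 IP replicate 2 ended the call of elb-1 (adjusted p = 0.0638), and leaving out replicate 2 or 3 that of lys-1 (up to 0.0708).

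**Figure D2:**
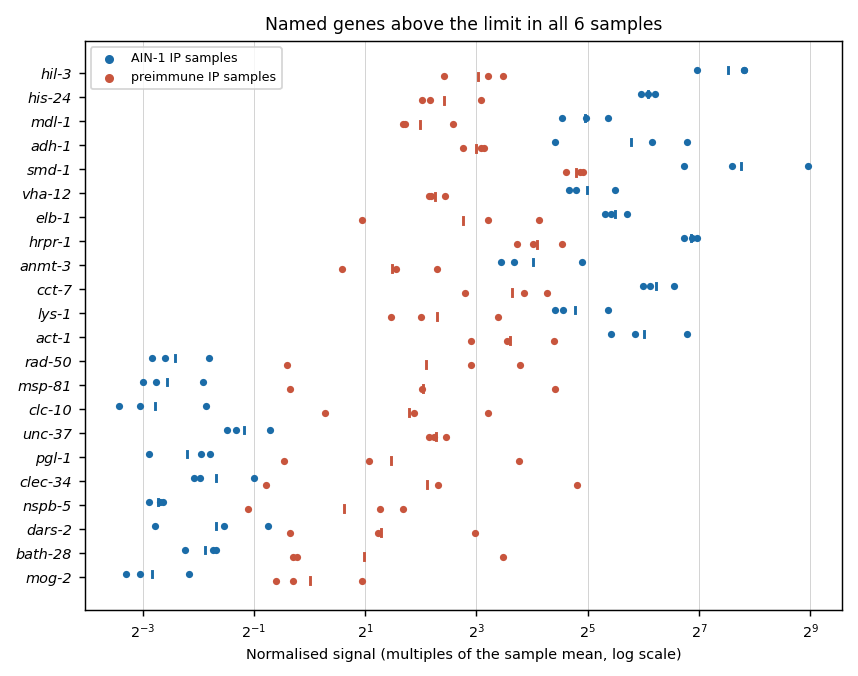
Normalised signal, in multiples of the sample mean on a log axis, of the 22 named genes above the limit in all 6 samples. Each dot is 1 sample and each vertical tick a group mean of log2 values (n = 3). The groups do not overlap for any of these genes, and for rad-50, msp-81, pgl-1, clec-34, dars-2 and bath-28 the preimmune samples are spread over more than 10-fold.

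Single genes that were lower in the AIN-1 IP were mostly dim there. The gene unc-37 encodes a Groucho-family corepressor that works with homeodomain and other DNA-binding factors. Its signals were 0.356, 0.608 and 0.397 in the AIN-1 IP and 4.43, 5.46 and 4.72 in the preimmune IP. The 3 samples of each group were close together, and the difference was -3.42 ± 0.42 (10.7-fold lower, adjusted p = 2.3e-04). It kept the call under both other scalings, without each sample in turn and with only the 6 samples (adjusted p = 0.0456), but not with the block in the 6 samples (0.264). The splicing factor gene mog-2 had 0.102, 0.222 and 0.121 against 1.92, 0.812 and 0.661 (-2.67 ± 0.51, adjusted p = 0.00426). The nematode-specific peptide gene nspb-5 had 0.136, 0.156 and 0.161 against 3.21, 0.463 and 2.4 (-3.23 ± 0.64, adjusted p = 0.00539).

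For the other named falls 1 or 2 preimmune samples were much brighter than the remaining ones. The double-strand break repair gene rad-50 had 0.14, 0.165 and 0.287 in the AIN-1 IP and 7.43, 13.7 and 0.759 in the preimmune IP (-4.81 ± 0.97, adjusted p = 0.00564). In the major sperm protein gene msp-81 preimmune replicate 1 stood out, at 21.4 against 0.784 and 4.07 in replicates 2 and 3, and 0.126, 0.265 and 0.148 in the AIN-1 IP (-4.23 ± 0.90, adjusted p = 0.008). Major sperm protein genes are near-identical, so this spot may hold RNA of several of them. The same replicate was the brightest for the P granule gene pgl-1, at 13.6 against 0.725 and 2.1 (-3.39 ± 0.79, adjusted p = 0.0129). It was also the brightest for the lectin gene clec-34 (28.1 against 0.58 and 4.93), for bath-28 (11.1 against 0.812 and 0.856) and for clc-10 (9.18 against 3.66 and 1.21). Leaving out AIN-1 IP replicate 2 ended the call of pgl-1 (adjusted p = 0.069). The calls of clec-34, bath-28 and clc-10 ended with any AIN-1 IP sample left out (adjusted p up to 0.133, 0.126 and 0.105). Those of clec-34 and clc-10 also ended without preimmune replicate 1, and that of clc-10 without preimmune replicate 2. The mitochondrial aspartyl-tRNA synthetase gene dars-2 was lower by -2.90 ± 0.70 (adjusted p = 0.0158), which did not pass when AIN-1 IP replicate 1 or 2 was left out (up to 0.0746).

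Cytosolic ribosomal protein genes, whose proteins build the translating ribosome, were the gene group with the most falls. Of 64 tested, 35 were lower and 0 higher, against 2.35% lower and 9.6% higher over 11812 genes with 1 feature each, and their median was -1.65 beside 0.42 over all features. The median signal of these genes was 2.97, 4.08 and 4.8 in AIN-1 IP replicates 1, 2 and 3 and 7.42, 16.9 and 20.4 in the preimmune replicates. Every AIN-1 IP sample therefore lay below every preimmune sample in this median. Gene by gene, 55 of the 64 were below 0 in all 3 replicate pairs, and for 40 the groups did not overlap. The small-subunit gene rps-3A had 5.05, 6.6 and 5.36 against 20, 28.9 and 25.6 (-2.09 ± 0.36, adjusted p = 0.00229). The large-subunit gene rpl-10L had 4.6, 7.52 and 6.68 against 21.4, 31.2 and 30.6 (-2.15 ± 0.39, adjusted p = 0.00305). Another, rpl-37.2, had 1.59, 1.69 and 2.3 against 9.18, 6.07 and 12.7 (-2.21 ± 0.38, adjusted p = 0.00226). In all 3 the lowest preimmune sample exceeded the highest AIN-1 IP sample.

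All 35 ribosomal protein falls lay among the features above the limit in all 6 samples, where 54 ribosomal protein genes made up 4.96% of the features and 36.8% of the 95 falls (background 8.74% lower and 6.99% higher over the 1087 genes there). Their number depended on the scaling: 1 of 64 was lower under mean scaling and 59 under cyclic loess. Their place below other genes did not, since all 54 lay below the median of the 1089 features under quantile, mean and cyclic loess scaling, by a median of -1.95, -2.02 and -2.24. Without preimmune replicate 1, 58 of 64 were lower. With the block over 20 samples it was 43, and with only the 6 samples 0. In the worms' own RNA these messages were abundant, with a median of 32.1 sample means in N2 total RNA.

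**Figure D3:**
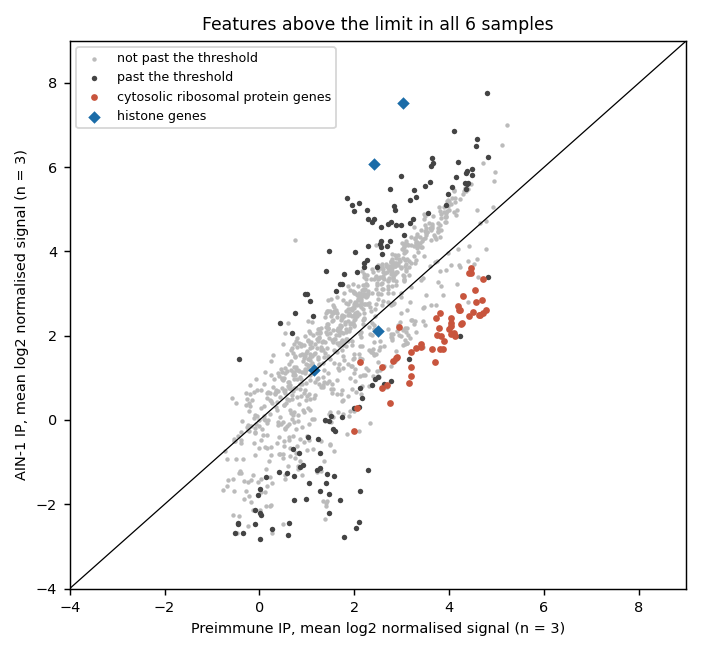
Mean log2 normalised signal of the 1089 features above the limit in all 6 samples, preimmune IP on the x axis and AIN-1 IP on the y axis (n = 3 each), with the line of equal signal. Ribosomal protein genes (red) form a band below the line at high preimmune signal, and hil-3 and his-24 are the 2 histone genes (blue) far above it.

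The counts of other housekeeping groups depended on preimmune replicate 1 and on the scaling. For the mitochondrial respiratory chain 2 of 44 genes were lower and 0 higher (median -0.09), but 15 were lower without preimmune replicate 1 and 14 under cyclic loess. The cytochrome c oxidase subunit gene cox-5B had 0.897, 1.48 and 0.888 against 3.21, 3.74 and 3.04 (-1.59 ± 0.39, adjusted p = 0.0164), although it did not pass under mean scaling or when AIN-1 IP replicate 1 or 3 was left out (adjusted p up to 0.0663 without a sample). Of 53 translation factor and tRNA synthetase genes 2 were lower, of 31 proteasome subunit genes 1, and none of either rose (medians 0.39 and 0.25). When preimmune replicate 1 was left out, the lower counts were 5 (with 1 higher) and 6, and under cyclic loess 6 and 5. Both of these medians changed side of the all-feature median with the scaling. Of 57 mitochondrial ribosomal protein genes 3 were higher and 1 lower, and their median of 0.21 lay below that of all features under each scaling. That balance turned to 2 higher and 6 lower without preimmune replicate 1 and to 0 and 10 under cyclic loess.

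Histone genes had a higher share of calls. Of 29 tested, 7 (24.1%) were higher and none lower, beside 9.6% and 2.35% over all genes, and the median of the 29 was 1.46. It was 3.83, 0.52 and 0.83 within replicate pairs 1, 2 and 3, so the first pair, with the dimmest preimmune sample, contributed the largest part. The median stayed above that of all features under each scaling, by 1.04, 1.83 and 0.77. Besides hil-3 and his-24, his-41 had 10.3, 12.3 and 29.4 against 0.728, 2.45 and 4.58 (2.99 ± 0.61, adjusted p = 0.00597). Not all preimmune samples were above the limit for his-41. Core histone genes exist in many near-identical copies, so spots of different his genes may report the same RNAs. Without preimmune replicate 1, 8 of the 29 were higher and the median was 0.73.

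Genes described before as microRNA targets, the messages that miRISC binds, were counted next. Of 19 tested, 6 (31.6%) were higher and none lower, beside 9.6% and 2.35% over all genes. The list, like the others, was chosen with earlier results of these data known. Of the 19, 17 lay above 0 with a median of 1.34. That median was 2.46 in the first replicate pair and 0.55 and 0.88 in the others. It stayed above that of all features under every scaling, by 0.92, 1.37 and 0.91, and 4, 7 and 6 genes were higher under cyclic loess, mean scaling and the block over 20 samples, but 0 with only the 6 samples. Without preimmune replicate 1, 6 were higher and 1, prmt-1, lower, with a median of 0.90. Only 4 of the 19 were above the limit in all 6 samples, and none of these (dbl-1, let-60, mef-2 and nhr-25) passed the test.

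The heterochronic gene hbl-1, a hunchback-like transcription factor that the let-7 family represses, had 3.25, 3.51 and 2.4 in the AIN-1 IP and 0.728, 1.19 and 0.525 in the preimmune IP. Its groups did not overlap (1.91 ± 0.46, adjusted p = 0.0161). It did not pass under cyclic loess or when AIN-1 IP replicate 1 or 2 was left out (adjusted p up to 0.11). The BH3-only cell death gene egl-1, a target of the mir-35 family, had 0.713, 0.741 and 1.4 against 0.0187, 0.376 and 0.0187, with 1 preimmune sample above the limit and the others at the floor (adjusted p = 0.00564). It kept its call in all 6 leave-one-out fits. The cadherin gene cdh-3 had 1.69, 1.94 and 1.77 against 0.446, 0.812 and 0.929 (1.32 ± 0.37, adjusted p = 0.0332). It did not pass under cyclic loess or with any AIN-1 IP sample left out (up to 0.164).

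The other 3 called targets were above the limit in all AIN-1 IP samples and in no preimmune sample, and dim in both, so no fold is given. The type I TGF-beta receptor gene daf-1, which acts in dauer formation, had 0.466, 0.492 and 0.67 against 0.0187, 0.0916 and 0.0187 (adjusted p = 0.00113). The second such receptor, sma-6, which acts in body size, had 0.295, 0.171 and 0.253 against 0.0187, 0.0187 and 0.0654 (0.0128). The heterochronic gene lin-66 had 0.138, 0.117 and 0.0973 against 0.0187, 0.0187 and 0.0432 (0.0121). The value 0.0187 is the floor that low signals were set to, so the preimmune samples at it have no order, and a difference that uses them depends on the floor. For lin-66 mean scaling gave an adjusted p of 0.119, and leaving out AIN-1 IP replicate 2 gave 0.0693.

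The 13 further targets did not pass the test, and some of them show how much preimmune replicate 1 weighs. The genes sqv-5 and sqv-7, of glycosaminoglycan synthesis, did not pass (adjusted p = 0.127 and 0.102), with the first preimmune sample at the floor and the others at 3.39 and 4.29 for sqv-5 and 2.72 and 3.74 for sqv-7. In the arginine methyltransferase gene prmt-1 the difference was 0.11 ± 1.20 (adjusted p = 0.967). Its preimmune signals were 0.121, 9.22 and 14.9 and its AIN-1 IP signals 1.95, 3.01 and 4.07. Without preimmune replicate 1 it came out lower, by -1.98 (adjusted p = 0.0029). The Ras gene let-60, a let-7 target, had 8.79, 9.08 and 6.73 against 4.81, 7.95 and 4.82, and its groups overlapped (0.46 ± 0.35, adjusted p = 0.408). For die-1 (1.34 ± 0.47, adjusted p = 0.0786) the groups did not overlap.

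**Figure D4:**
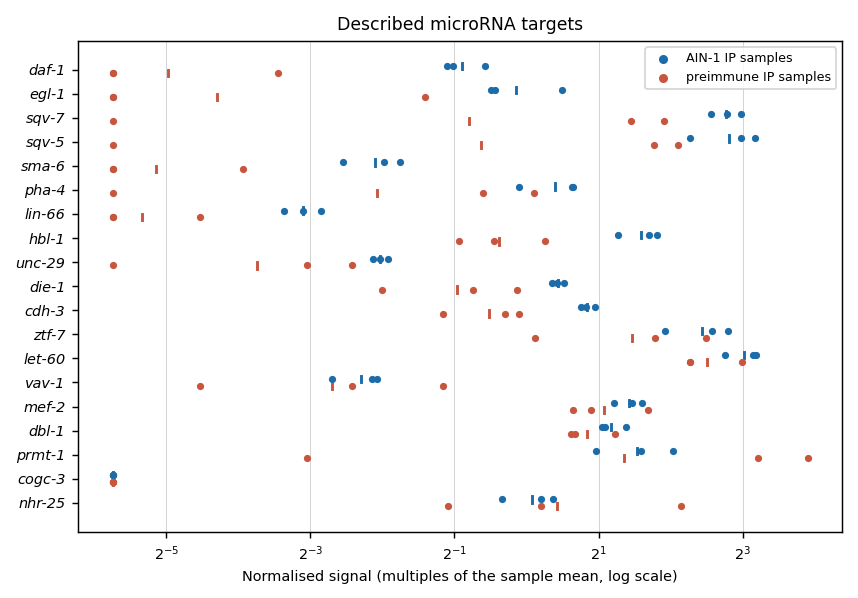
Normalised signal, in multiples of the sample mean on a log axis, of the 19 described microRNA targets in each of the 6 samples, ordered by difference. Dots are samples and ticks group means of log2 values (n = 3). Preimmune dots at the left edge are values at the floor of 0.0187.

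The timing pathway and the silencing machinery itself were counted apart. Of 5 heterochronic pathway genes 2 were higher, hbl-1 and lin-66 (median 1.24), both already counted among the described targets. The count was 3 under mean scaling, with the block over 20 samples and without preimmune replicate 1. It was 1 under cyclic loess and 0 with only the 6 samples. Over all genes 9.6% were higher and 2.35% lower. Of 24 miRISC and P-body genes, P bodies being the granules where untranslated messages gather, 1 was higher and none lower (median 0.47). That gene was ain-1, which had 3.74, 3.69 and 3.72 in the AIN-1 IP against 0.446, 1.76 and 1.57 in the preimmune IP (1.68 ± 0.51, adjusted p = 0.0436). Not all preimmune samples were above the limit for ain-1. The AIN-1 IP samples were nearly equal, and it did not pass under cyclic loess, in the fits that lacked an AIN-1 IP sample or in the fit that lacked preimmune replicate 1 (adjusted p up to 0.181 without a sample). The Argonaute gene alg-2 had 1.52, 1.68 and 1.73 against 1.08, 1.07 and 0.825 (0.70 ± 0.36, adjusted p = 0.219), and its sister alg-1 was below the limit in all 6 samples. The poly(A)-binding protein gene pab-1 lay lower in all AIN-1 IP samples, at 13.1, 14.1 and 13.7 against 14.7, 27.8 and 22.9, without passing the test (-0.60 ± 0.39, adjusted p = 0.33).

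Messages measured in the AIN-1 IP alone were dim in the worms' own RNA, with a median of 0.136 sample means in N2 total RNA beside 0.192 over all tested features. Of 2387 features above the limit in all AIN-1 IP samples and in no preimmune sample, 692 (29%) were higher and 1 lower, and over genes with 1 feature each 678 of 2334 (29%) were higher. Choosing features in this way favours higher calls by itself, so the direction of these calls is no result. Fold differences are lower bounds here, taken in each preimmune sample against the lowest signal above its limit or the gene's own signal there, whichever was higher. The levamisole-type acetylcholine receptor subunit gene lev-1 had 2.45, 2.67 and 1.6 in the AIN-1 IP against 0.0187, 0.152 and 0.0187. It was at least 4.06-fold higher, the largest bound by the naming rule (adjusted p = 2.3e-04). The gene sup-18, which regulates a potassium channel in muscle, had 2.05, 2.1 and 1.79 against 0.0187, 0.0916 and 0.144 (at least 3.66-fold, adjusted p = 2.3e-04). The anosmin gene kal-1, which acts in neurite branching, had 1.72, 2.97 and 1.49 against 0.0531, 0.25 and 0.0187 (at least 3.64-fold, adjusted p = 6.8e-04).

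The other 7 bounds ran from 2.61-fold to 3.73-fold. They belonged to sphr-1 (adjusted p = 2.34e-04), the acid phosphatase gene pho-9 (0.011), egli-1 (0.00841), the neuropeptide gene nlp-101 (8.19e-04), the cuticlin-like gene cutl-15 (0.00115), the immunoglobulin-domain gene igcm-4 (6.4e-04) and gpr-158 (0.00117). All 10 kept their calls in the 6 leave-one-out fits and under both other scalings, and none with only the 6 samples. In the opposite direction 1 gene met the rule: the acyltransferase gene oac-22, with 3.21, 0.492 and 0.595 in the preimmune IP and 0.0187, 0.0512 and 0.0187 in the AIN-1 IP, was at least 11.6-fold lower (adjusted p = 0.00259).

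Neuronal receptor and channel genes had larger shares of higher calls than the 9.6% over all genes. Of 47 potassium channel genes 12 (25.5%) were higher and none lower (median 1.01), of 69 neuropeptide receptor genes 15 (21.7%) and none (0.98), and of 65 ligand-gated ion channel genes 12 (18.5%) and 1 (0.83). Few of these genes were measured on both sides: 3 potassium channel, 2 neuropeptide receptor and 3 ligand-gated channel genes were above the limit in all 6 samples, with medians of 0.99, -0.98 and -1.33, and none of them was called. The higher counts thus rest on genes that some or all preimmune samples did not measure. Above the limit in all AIN-1 IP and no preimmune samples were 22, 21 and 27 genes of these lists, and 2334 of all 11812. Choosing genes in this way favours higher calls, so the 9.6% is not a like background for them. Of these genes 10 (45.5%), 10 (47.6%) and 11 (40.7%) were higher, beside 29% over all genes so chosen. With only the 6 samples the higher counts were 1, 2 and 1, and no list kept more than 3. Without preimmune replicate 1 the higher counts were 10, 19 and 15. The 3 medians stayed above that of all features under each scaling, by 0.24 to 0.86. These genes are dim in whole worms, with median N2 total RNA signals of 0.0641, 0.0827 and 0.0782 sample means. The part played by low signal in the dim preimmune samples was not tested. Nor can more RNA of these cells be told apart from more RNA per cell in whole-worm samples.

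Within these groups the glutamate-gated chloride channel gene glc-4 had 0.419, 0.317 and 0.41 in the AIN-1 IP against 0.0187, 0.0426 and 0.0187 (adjusted p = 2.34e-04). The tandem-pore potassium channel gene twk-12 had 0.384, 0.273 and 0.382 against 0.0531, 0.0187 and 0.0187 (7.57e-04), and twk-18, which sets muscle excitability, had 0.283, 0.241 and 0.27 against the floor in all 3 preimmune samples (0.0012). No preimmune sample measured any of them, so their folds have no usable bound. The neuropeptide receptor gene npr-41 was measured on both sides in part, with 3.71, 5.04 and 4.91 against 0.446, 0.642 and 0.929 and 2 preimmune samples above the limit (2.73 ± 0.41, adjusted p = 8.14e-04). The receptor genes dmsr-4 and frpr-15 were at least 1.48-fold and 1.6-fold higher (adjusted p = 2.28e-04 and 0.00146), and the acetylcholine receptor gene acr-8 at least 1.24-fold (0.00203).

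The neuropeptide ligands themselves were closer to the background. Of 99 neuropeptide and insulin genes 11 were higher and 2 lower (median 0.57). The peptide gene nlp-10 had 1.19, 1.32 and 0.984 against 0.248, 0.152 and 0.436 (2.32 ± 0.42, adjusted p = 0.00305), a call lost under cyclic loess. Not all of its preimmune samples were above the limit. Of 29 synaptic and neuronal marker genes 6 were higher and none lower, although their median of 0.19 lay below that of all features under each scaling. The neuronal gene unc-119 had 0.45, 0.258 and 0.245 against 0.0187, 0.0187 and 0.0654 (adjusted p = 4.33e-04). The fit gave it the opposite direction in the AIN-2::GFP IP against the GFP IP (-3.45, adjusted p = 0.00136). Of 520 chemoreceptor genes 39 (7.5%) were higher and 16 lower (median 0.07; 25 and 36 under mean scaling), a family that also served to set the background limit.

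Guidance, adhesion and signalling genes gave similar shares to the channels. Of 31 axon guidance and adhesion genes 6 (19.4%) were higher and none lower (median 1.05), and of 40 genes of the Wnt, Notch, Ras and TGF-beta pathways 8 (20%) and none (median 0.41, on either side of the all-feature median by scaling). Over all genes 9.6% were higher and 2.35% lower. Among genes above the limit in all AIN-1 IP and no preimmune samples, 2 of 8 (25%) and 4 of 7 (57.1%) were higher. Over all genes so chosen it was 29%. The Notch receptor gene lin-12 had 0.409, 0.674 and 0.506 against 0.0187, 0.0187 and 0.0432 (adjusted p = 1.33e-04) and kept its call with only the 6 samples. The netrin gene unc-6, a guidance cue, had 0.234, 0.138 and 0.17 against the floor in every preimmune sample (0.00313). The ephrin gene efn-4 had 1.09, 1.46 and 1.13 against 0.0187, 0.43 and 0.0432, with 1 preimmune sample above the limit (adjusted p = 0.00635, and 0.0515 without AIN-1 IP replicate 2). The gene smoc-1, for an extracellular regulator of BMP signalling, was at least 2.19-fold higher (adjusted p = 0.00612).

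Of 69 hedgehog-related and patched-related genes 15 (21.7%) were higher and 2 lower (median 0.95), and of 46 pharyngeal-cuticle abu and pqn genes 10 (21.7%) and 1 (0.94), beside 9.6% and 2.35% over all genes. Among genes above the limit in all AIN-1 IP and no preimmune samples, 7 of 19 (36.8%) and 9 of 21 (42.9%) were higher. Over all genes so chosen it was 29%. Worms lack a canonical Hedgehog pathway but carry many genes of these families, which act in cuticle and moulting. The ligand-like gene hog-1 had 0.224, 0.154 and 0.191 against the floor in all preimmune samples (adjusted p = 5.47e-04). The Dispatched-like gene che-14 had 0.31, 0.857 and 0.643 against 0.0187, 0.0426 and 0.0187 (at least 1.03-fold, adjusted p = 6.4e-04). Of 164 collagen and cuticle genes 9 were higher and 2 lower (median 0.02). The balance turned to 6 higher and 10 lower without preimmune replicate 1 and to 5 and 17 under cyclic loess.

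Transcription factor families had shares of higher calls near the 9.6% over all genes. Of 81 homeodomain genes 11 (13.6%) were higher and none lower (median 0.77). Of 145 nuclear hormone receptor genes 19 (13.1%) were higher and 3 lower (0.49), and of 58 genes of the bHLH, T-box, forkhead, ETS, GATA and SOX families 7 (12.1%) and 1 (0.54). With only the 6 samples 2 genes were higher in each of these lists. The median of the nuclear hormone receptors fell on either side of the all-feature median by scaling. The proneural gene hlh-14 had 0.442, 0.395 and 0.366 against the floor in all preimmune samples (adjusted p = 7.98e-05), the smallest p of the named genes. Its preimmune values are equal only because they were set to the floor, so this p depends on the floor. That holds for every gene with all preimmune samples at the floor. The LIM-homeodomain gene lin-11 had 0.387, 0.341 and 0.283 against the floor as well (0.00144), and ttx-3, a LIM-homeodomain gene of the AIY interneuron, had 1.24, 1.06 and 1.25 with 1 preimmune sample at 0.436 and the others at the floor (adjusted p = 0.0041). The Hox gene mab-5 was at least 1.55-fold higher (0.00564). The receptor gene nhr-276 went the other way, at least 6.85-fold lower, with 2 preimmune samples above the limit and the highest, replicate 1, at 1.92 (adjusted p = 0.0011).

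**Figure D5:**
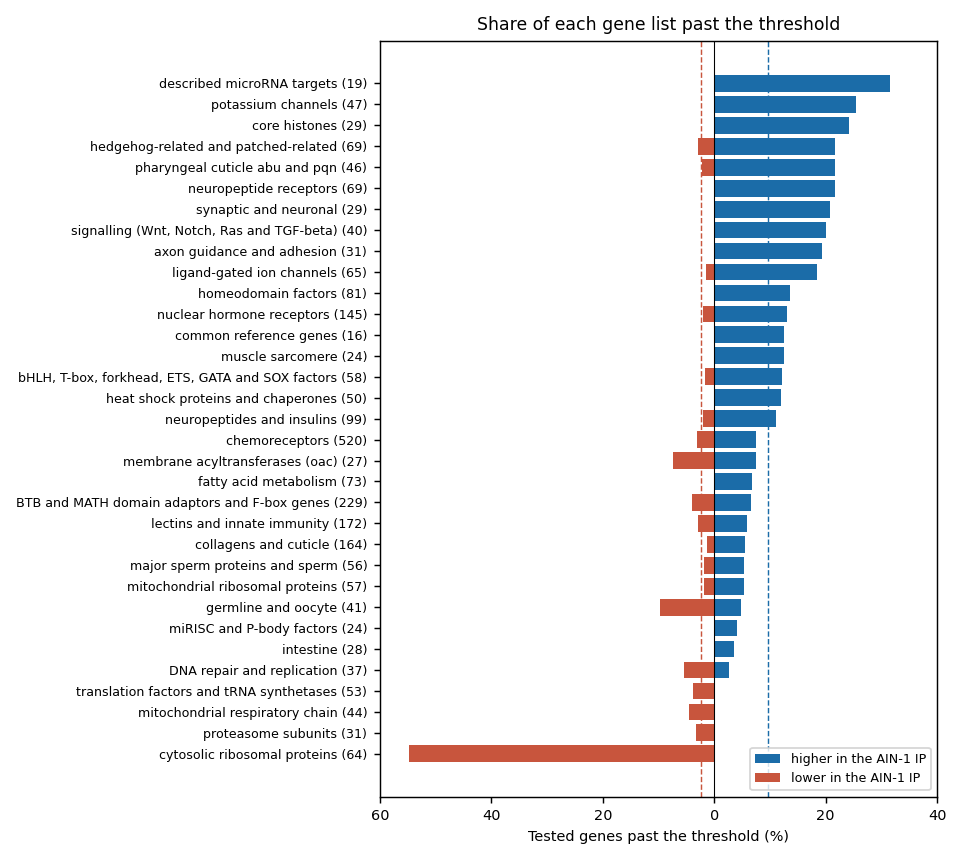
Percentage of the tested genes of each list of more than 6 genes that were higher (blue, to the right) or lower (red, to the left) in the AIN-1 IP, with the number tested in brackets. Dashed lines mark 9.6% and 2.35%, the shares over 11812 genes. The list named core histones also holds the linker histone genes. The bar of the cytosolic ribosomal proteins reaches 54.7% on the lower side, and those of the described microRNA targets and potassium channels reach 31.6% and 25.5% on the higher side.

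Markers of several tissues were measured in the AIN-1 IP. Above the limit in all 3 AIN-1 IP samples were 63.9% of all tested genes, 22 of 24 muscle genes, 6 of 6 vitellogenin (yolk protein) genes, 25 of 28 intestinal genes, 31 of 41 germline and oocyte genes, 34 of 56 sperm genes and 20 of 29 neuronal genes. Of the muscle genes 3 were higher and none lower, with pat-6, a parvin of muscle attachments, at 5.34, 7.77 and 5.14 against 0.121, 1.19 and 0.856 (3.52 ± 0.70, adjusted p = 0.00545). Not all preimmune samples were above the limit for pat-6. No vitellogenin gene passed the test, and their median of 1.08 turned to -0.83 under cyclic loess. Of the germline and oocyte genes 4 of 41 were lower and 2 higher (median -0.17). These counts were 8 and 1 without preimmune replicate 1, 10 and 0 under cyclic loess, and 2 and 3 under mean scaling. Among them the oocyte surface gene egg-2 had 0.264, 0.692 and 0.551 against 1.49, 2.11 and 1.91 (-1.92 ± 0.53, adjusted p = 0.0308). It did not pass under mean scaling, or with preimmune replicate 2 or any AIN-1 IP sample left out (up to 0.125). The cytoplasmic poly(A) polymerase gene gld-2 had 4.67, 3.98 and 3.86 against 0.728, 2.08 and 1.73 (2.82-fold, adjusted p = 0.032), which did not pass under cyclic loess or with any AIN-1 IP sample left out (up to 0.144). Not all preimmune samples were above the limit for gld-2, so its fold is uncertain.

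The remaining lists had shares of higher genes at or below 12.5%. Of 50 heat shock and chaperone genes 6 were higher and none lower (median 0.52), of 73 fatty acid metabolism genes 5 and none (0.42; 3 and 5 without preimmune replicate 1), of 172 lectin and innate immunity genes 10 and 5 (0.06), and of 229 BTB, MATH and F-box adaptor genes 15 and 9 (0.01). Under mean scaling the last 2 balances turned to 10 and 15 and to 8 and 19. Of 56 sperm genes 3 were higher and 1 lower (0.67), of 37 DNA repair and replication genes 1 and 2 (-0.07), of 27 membrane acyltransferase genes 2 and 2 (-0.75), of 28 intestinal genes 1 and none (0.35), and of 16 common reference genes 2 and none (0.44). The sperm-specific phosphatase gene gsp-4 had 4.11, 4.17 and 4.54 against 0.446, 1.07 and 0.825 (2.43 ± 0.41, adjusted p = 0.00191). Its groups did not overlap, but not all of its preimmune samples were above the limit. In the adaptor family btb-9 was at 0.253, 0.29 and 0.408 against the floor in all preimmune samples (adjusted p = 1.44e-04). The F-box gene fbxb-13 was called lower (adjusted p = 0.00117) although all 6 of its samples lay below the limit, the AIN-1 IP samples between 0.0198 and 0.0224 and the preimmune samples between 0.221 and 0.309.

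The higher features had about the abundance of all features in the worm. The median signal in N2 total RNA (n = 2) was 0.193 sample means for the 1154 higher features, 0.192 for all 12222 and 0.12 for the 289 lower ones. The 1089 features above the limit in all 6 samples were brighter, at 3.69.

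The AIN-2::GFP IP against the GFP IP uses other samples, though the same fit and dye term. Its control is also dim in part, with mean signals of 370, 46 and 12 scanner units in GFP IP replicates 1, 2 and 3 against 729, 329 and 612 in the AIN-2::GFP IP. It gave 363 higher (2.97%) and 155 lower features (1.27%). Of these, 233 were higher in both contrasts, which is 20.2% of the 1154 higher features of AIN-1 and 64.2% of the 363 of AIN-2. Lower in both were 58 features, 20.1% of the 289 and 37.4% of the 155. The fit gives each feature 1 spread for both contrasts, so the calls compared are not independent. In opposite directions were 4 features higher for AIN-1 and lower for AIN-2, unc-119 among them, and none the other way round. All 35 ribosomal protein genes that were lower in the AIN-1 IP were lower there too, as against 13 of the other 60 falls above the limit in all samples (21.7%). Of all 64 ribosomal protein genes tested, 53 were lower there, so most of the family fell whether or not it was called in the AIN-1 IP. Among named genes hil-3 (2.64, adjusted p = 0.0131), his-24 (3.00, 0.0135), mdl-1 (2.99, 0.00374) and hbl-1 (2.45, 0.00822) were higher for AIN-2 as well. The value for ain-1 was 0.83 (0.422), that for egl-1 2.48 (0.0885) and that for unc-37 -0.75 (0.376), none past the threshold there. Whether these values differ from those of the AIN-1 IP was not tested.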

How the data were processed

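RNA of 6 samples (3 AIN-1 IP, 3 preimmune IP) was analysed within the series' 20 spotted-array samples. RNA was extracted with Trizol, amplified and labelled with Cy3 or Cy5, per the labels' protocols, and replicates are biological, per the series text. The deposited values are linear spot intensity divided by each sample's mean, as read from the values: a single constant per sample turns 100% of them into whole numbers (tolerance 0.001). The sources used here do not name the image software or the background method.

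The deposited intensity values were quantile normalised over 20 samples, floored at the 10th percentile of positive values (0.0187, 32.5% of all values) and taken to log2. The array holds 23232 features; the probe table pairs 17461 with 1 gene and does not list 5771. The 12222 gene features whose mean passed the 30th percentile were tested with limma 3.58.1 (R 4.3.3; figures with Python 3.11.15): 7 groups plus dye over all 20 samples, two-sided, Benjamini-Hochberg adjusted p under 0.05. The code was tested on simulated data. For lists, the feature with the highest mean stands for a gene. A bound is taken against the higher of the lowest signal above the limit and the dim group's own signal on normalised log2 values, and no fold is given where it came out under 1.

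Same-numbered samples carry opposite dyes. Their deviations from the group means correlated at 0.247, 0.199 and 0.384 and those of other pairs below 0, so the numbers were taken to pair the samples. Deviations within a group sum to 0 for each feature, so the values below 0 are partly forced and add no separate support. The fit without the block remained the main one. The rule for named genes took the 12 largest rises and 10 largest falls above the limit in all 6 samples, the 10 largest rises and up to 6 falls by bound, all with the same sign in 3 pairs, every described target and miRISC factor, and up to 3 genes of smallest adjusted p for each of the other lists. K07A1.13, sri-15 and the lists' members outside this rule are mentioned for thresholds and counts alone. Members and the 35 lists were chosen with earlier results of these data known. Alternatives were other scalings, floors, filters, limits, covariates, blocks and leaving out samples.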

Additional observations from a re-analysis of the deposited data

Results flagged for a closer look

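Features that the probe table does not list were left out of every comparison, and they carried signal in the AIN-1 IP. Of these 5771 features, 573 (9.93%) were above the background limit in all 3 AIN-1 IP samples and in no preimmune sample, beside 13.8% of the gene features. Above it in all AIN-1 IP samples were 2073 (35.9%, against 43.9%), and in all preimmune samples 443 (7.68%, against 6.28%). What these spots hold is not given in the sources used here, and the preimmune limits are higher relative to each sample's mean.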

How the results depend on the processing

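Higher and lower features, 1154 and 289 as reported, were 1312 and 588 under mean scaling and 927 and 739 under cyclic loess; the lower count was 624 without the low-signal filter and 542 with the replicate block over 20 samples. With only the 6 samples they were 107 and 4, and with quantile normalisation of those 6 alone or with the replicate block in them limma called 0 and 0 (unadjusted p under 0.05: 1061 and 286, and 1336 and 468). Leaving out 1 sample gave 445 to 1759 higher and 74 to 738 lower. Without the first pair, a setting chosen after seeing the data, 655 were higher. Above the limit in all 6 samples (76 and 95) the counts were 357 and 36 under mean scaling, 19 and 193 under cyclic loess, 4 and 1 with only the 6 samples, 0 and 0 with quantile normalisation of those 6 or the replicate block in them, 120 higher with the floor at the 25th percentile, 157 without the filter, 193 with trended robust variances, 21 to 274 higher and 27 to 401 lower leaving out 1 sample, and 141 and 193 without the first pair. Above it in all preimmune samples the higher counts were these same numbers, and the lower one (99) was 40 under mean scaling, 197 under cyclic loess, 1 with only the 6 samples, 0 with quantile normalisation of those 6 or the block in them, 30 to 411 leaving out 1 sample and 196 without the first pair. The lowest counts came without AIN-1 IP replicate 2 and the highest without preimmune replicate 2 (all tested features) or 1 (the subsets, which then hold 3759 features above the limit in every sample in place of 1089). Of 110 calls on named genes, 95 held under mean scaling, 90 under cyclic loess, 109 with the replicate block over 20 samples, 70 in all 6 fits without 1 sample, 18 with only the 6 samples and 0 with the block in them. Directions turned for smd-1 (-0.02 under cyclic loess) and prmt-1 (-1.98 to 1.36 leaving out 1 sample, the former without preimmune replicate 1, and -1.74 without the first pair), and the cause was not tested. The dimness of the preimmune samples limits every difference: few features are measured there, and 1 scanner unit in replicate 1, whose mean is 9, is a large step.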
